A study of Mus musculus with 11 samples.

Results

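The epithelial to mesenchymal transition (EMT) genes described here are 10 of the 23288 gene symbols in the expression table. They were chosen by name: the cadherin genes Cdh1 and Cdh2, the adhesion gene Epcam, the mesenchymal genes Vim and Fn1, and the transcription factor genes Snai1, Snai2, Twist1, Zeb1 and Zeb2. The study asked what CBX6, a subunit of Polycomb repressive complex 1 (PRC1), does in mouse embryonic stem cells (ESCs). All samples were E14Tg2A ESCs, an established mouse line, grown without feeders in serum and LIF. RNA-seq covered 4 libraries of ESCs infected with lentivirus and selected with antibiotic: the virus carried a control hairpin in 2 of them (shCtl) and a hairpin that targets Cbx6 in the other 2 (shCbx6). Which of the study's Cbx6 hairpins each shCbx6 library carried is not given in the sources used here. ChIP-seq gave 4 peak lists: anti-HA ChIP in 2 replicates of ESCs whose own Cbx6 gene carries a CRISPR-inserted 3×HA tag (a line grown from single sorted cells), and ChIP of CBX7 and of RING1B. The control ChIP samples were not analysed here.

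In EMT, epithelial cells give up the junctions that hold them in sheets and become motile. SNAI, TWIST and ZEB transcription factors bind E-box motifs in the promoters of epithelial genes such as Cdh1, which encodes E-cadherin, and repress them, while N-cadherin (Cdh2), vimentin (Vim) and fibronectin (Fn1) come up. ESCs grow as compact colonies held together by E-cadherin, and the epiblast, the embryonic tissue they stand for, undergoes an EMT at gastrulation. PRC1 sits on the promoters of many silent developmental genes. There CBX subunits such as CBX7 read a methyl mark on histone tails, and RING1B adds ubiquitin to another histone. The paper reports that CBX6, unlike CBX7, binds chromatin independently of that methyl mark.

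The promoters of the epithelial members are shown because they hold the E-box that SNAI and ZEB factors read. The printed stretch is the 250 bases before the outermost annotated start, read from the mm9 genome on the plus strand, at chr8:109127001-109127250 for Cdh1 and chr17:88035069-88035318 for Epcam. Capitals mark CACCTG or its reverse complement CAGGTG.
Cdh1: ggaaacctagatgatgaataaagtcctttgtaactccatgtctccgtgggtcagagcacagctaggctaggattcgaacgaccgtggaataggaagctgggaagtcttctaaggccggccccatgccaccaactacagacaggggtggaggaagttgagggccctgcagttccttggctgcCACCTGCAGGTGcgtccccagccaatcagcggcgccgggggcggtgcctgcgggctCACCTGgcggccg
Epcam: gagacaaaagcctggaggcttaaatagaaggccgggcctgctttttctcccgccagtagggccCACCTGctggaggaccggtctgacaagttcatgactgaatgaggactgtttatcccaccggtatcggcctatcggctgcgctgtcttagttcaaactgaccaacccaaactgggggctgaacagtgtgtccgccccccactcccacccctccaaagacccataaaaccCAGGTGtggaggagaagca
Over a window that also takes in the 50 bases after the start, Cdh1 held 3 such motifs, beginning at −69, −63 and −13 from the start. Epcam held 2, at −187 and −19. Zeb1 also held 2, at −221 and −63, Snai1 held 1 at −126, and the other 6 members held none. Of 22233 promoters of protein-coding genes of the same length, 19.9% held at least 1 and 2.82% at least 2.

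The promoters of Twist1 (chr12:34642286-34642535) and Snai1 (chr2:167363445-167363694), both on the plus strand, are shown because CBX6 and CBX7 peaks cover their starts and both are dense in CpG, as many Polycomb target promoters are. Capitals mark CG.
Twist1: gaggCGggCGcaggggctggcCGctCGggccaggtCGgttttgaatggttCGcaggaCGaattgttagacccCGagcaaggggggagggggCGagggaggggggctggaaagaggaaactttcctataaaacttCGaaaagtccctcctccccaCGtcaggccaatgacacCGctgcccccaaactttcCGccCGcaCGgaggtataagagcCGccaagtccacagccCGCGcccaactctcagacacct
Snai1: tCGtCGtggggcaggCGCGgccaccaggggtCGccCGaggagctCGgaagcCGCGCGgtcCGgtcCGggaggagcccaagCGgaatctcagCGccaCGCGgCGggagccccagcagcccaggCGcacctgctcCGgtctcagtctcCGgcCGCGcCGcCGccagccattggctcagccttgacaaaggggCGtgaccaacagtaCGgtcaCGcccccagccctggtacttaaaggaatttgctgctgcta
The printed stretches hold 18 CG steps in Twist1 and 27 in Snai1. Over the window with the 50 bases after the start, the promoter of Cdh2 was the densest of the 10, with 44 CG steps and an observed to expected CpG ratio of 0.993. It was followed by Snai1 (34 steps, ratio 0.925), Fn1 (29, 0.897) and Twist1 (27, 0.827). Zeb1 had 18 (0.652), Cdh1 17 (0.599) and Vim 14 (0.585). Snai2 (10, 0.521), Zeb2 (11, 0.509) and Epcam (11, 0.454) lay below the median ratio of all promoters, which was 0.535.

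RNA levels are given as FPKM, fragments scaled to transcript length and to the fragments mapped in a library, so they can be set side by side between genes. The targeted gene Cbx6 stood at 17.4 and 14.9 FPKM with the control hairpin and at 9.53 and 5.40 with the Cbx6 hairpin. Each knockdown library was below each control, with a ratio of means of 0.462 and more RNA left in replicate 1 than in replicate 2. The limma log2 fold change was −1.06 (SE 0.263), with a Benjamini-Hochberg adjusted p of 0.247, so the knockdown itself did not pass the test. The annotation places Npcd over Cbx6 on the same strand, and reads of the 2 genes may be split between them.

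Read depth, estimated from the steps between low FPKM values, was between 31600000 and 37200000 fragments a library. ESC markers were high in every library, with Pou5f1 between 1120 and 1452 FPKM and Nanog between 191.6 and 358.7. Of 10 fibroblast markers, 1 passed the filter on low values (Thy1, at most 3.82 FPKM), and Lum was listed at 0 throughout. The second shCbx6 library stood apart from the other 3, with 118.8 FPKM of the keratin gene Krt8 against 4.81 to 12.1 elsewhere, so 1.5-fold counts are given with and without it. Whether the libraries of a group came from separate cultures is not given in the sources used here, so p-values measure only the spread between these samples. In bulk RNA, fewer cells of a type and less RNA per cell cannot be told apart.

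In shCtl ESCs the members formed a high and a low set. Fn1 was the most abundant at 141.1 ± 18.5 FPKM (SD, n = 2, as for all values in this paragraph), above 97.2% of all genes. Cdh1 followed at 80.1 ± 7.47 FPKM, then Epcam at 54.6 ± 16.6 and Vim at 48.6 ± 6.70, and the ranges of the last pair overlapped. ESCs thus held RNA of epithelial and mesenchymal members side by side. The other 6 members were more than an order of magnitude lower. Zeb1 stood at 2.46 ± 0.628 FPKM and Cdh2 at 1.14 ± 0.230. Snai2 (0.558 ± 0.275), Snai1 (0.520 ± 0.272) and Twist1 (0.504 ± 0.174) had overlapping ranges. Zeb2 was lowest, at 0.130 ± 0.0369 FPKM.

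**Figure D1:**
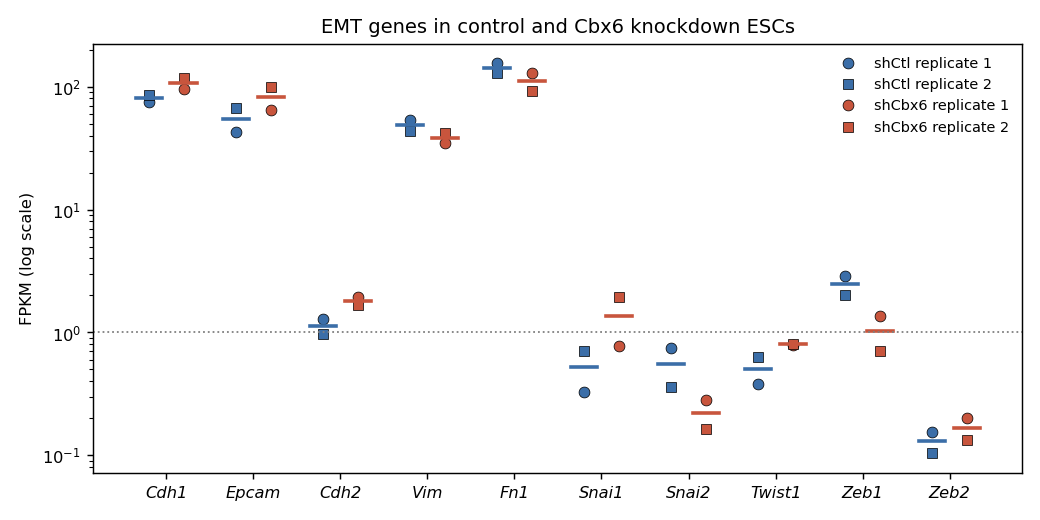
FPKM of the 10 members on a log axis, with shCtl in blue and shCbx6 in red, circles for replicate 1, squares for replicate 2, bars for group means and a dotted line at 1 FPKM. Cdh1, Epcam, Vim and Fn1 sit between 34.9 and 154.1 FPKM in all libraries, and the other 6 members below 3.

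After Cbx6 knockdown the epithelial members Cdh1 and Epcam had higher mean levels. The mesenchymal members went both ways, with Vim and Fn1 lower and Cdh2 higher, as did the transcription factors, with Snai1 higher and Zeb1 lower. None of these differences passed the test across all genes. Of the 10 members, 7 reached a mean of 1 FPKM in shCtl or shCbx6 and were tested by limma on log2(FPKM + 1), a scale that understates changes of low genes. limma called 0 of the 7 higher and 0 lower at an adjusted p under 0.05. Among all 11592 genes tested it called 0.0431% higher and 0.0518% lower, 0.0949% in all. At an unadjusted p under 0.05, 0 members were higher and 1, Zeb1, was lower, beside 5.12% and 6.55% of all tested genes.

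The study used a fold threshold, and how it combined replicates is not given in the sources used here. By a 1.5-fold ratio of group means with no test, Epcam, Cdh2 and Snai1 were higher and Zeb1 lower, 3 and 1 of the 7 tested members. Snai1 had passed the filter on low values only through its shCbx6 mean, and of the other 6 members 2 were higher and 1 lower. Of all tested genes, 7.63% were 1.5-fold higher and 6.56% lower. Without the second shCbx6 library 1 member, Cdh2, was higher and 1, Zeb1, lower, beside 5.74% and 7.41% of all tested genes. Cdh1, Cdh2 and Snai1 had both shCbx6 values above both shCtl values, as did 18.9% of all tested genes. Zeb1, Vim and Fn1 had both below, as did 24.4% of all tested genes, and the values of Epcam overlapped. The median log2 fold change was 0.40 over the 7 and 0.03 without Snai1, against −0.01 over all genes tested. For any single gene, the smallest two-sided p of an exact permutation of 2 libraries against 2 is 0.333, so none is given.

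Cdh1, the gene of E-cadherin, had 74.9 and 85.4 FPKM with the control hairpin and 96.3 and 118.4 with the Cbx6 hairpin. Both shCbx6 libraries were above both controls, and the ratio of means was 1.34. The log2 fold change was 0.41 (SE 0.174; limma, adjusted p = 0.451). Epcam, which encodes an epithelial surface adhesion protein abundant on ESCs, had 42.9 and 66.3 FPKM in shCtl against 65.0 and 100.1 in shCbx6. The first shCbx6 library lay just under the second control, so the groups overlapped. The log2 fold change was 0.59 (SE 0.299; limma, adjusted p = 0.534). The ratio of means of Epcam was 1.51 and came to 1.19 without the second shCbx6 library.

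Cdh2, the gene of N-cadherin, had 1.30 and 0.974 FPKM in shCtl against 1.96 and 1.66 in shCbx6. Both knockdown libraries were above both controls although the level stayed under 2 FPKM, far below Cdh1. The ratio of means was 1.59 (log2 fold change 0.40, SE 0.188; limma, adjusted p = 0.50), and 1.72 without the second shCbx6 library. The balance of the cadherins overlapped between groups. Cdh1 exceeded Cdh2 57.6-fold and 87.7-fold with the control hairpin and 49.2-fold and 71.4-fold with the Cbx6 hairpin. The annotation places a transcript, Gm15485, antisense to Cdh2, and whether counting used the strand is not stated.

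Vim, an intermediate filament gene, had 53.3 and 43.9 FPKM in shCtl against 34.9 and 42.0 in shCbx6. Both knockdown values were below both controls, the nearer by less than 2 FPKM. The log2 fold change was −0.33 (SE 0.174; limma, adjusted p = 0.548). Fn1, which encodes the matrix protein fibronectin, had 154.1 and 128.0 FPKM in shCtl against 127.9 and 92.2 in shCbx6. The higher shCbx6 value and the lower shCtl value were nearly equal, so the groups barely parted. The log2 fold change was −0.37 (SE 0.216; limma, adjusted p = 0.59), and leaving out the second shCbx6 library brought it to −0.13. Apol7d lies antisense to Fn1 in the annotation.

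Ratios within a library do not depend on how the library was scaled. These were chosen after the values had been seen and carry no test. Cdh1 over Vim was 1.40 and 1.95 in shCtl against 2.76 and 2.82 in shCbx6. The sum of Cdh1 and Epcam over the sum of Vim and Fn1 was 0.568 and 0.883 in shCtl against 0.991 and 1.63 in shCbx6. Neither ratio overlapped between groups, which the choice of their genes by direction fixed, while Cdh1 over Cdh2, above, did overlap.

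Zeb1, which encodes a zinc finger repressor of E-cadherin, had the lowest limma p among the members. It had 2.91 and 2.02 FPKM in shCtl against 1.36 and 0.713 in shCbx6. Both knockdown libraries were below both controls. The ratio of means was 0.421, with a log2 fold change of −0.77 (SE 0.246; limma, adjusted p = 0.337). Without the second shCbx6 library the ratio was 0.552 and the log2 fold change −0.54. Gm10125 and Gm16147 lie antisense to Zeb1. Its paralog Zeb2 had 0.156 and 0.104 FPKM in shCtl against 0.202 and 0.132 in shCbx6, overlapping groups too low to be tested, and Gm13476 lies antisense to it.

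Snai1, the gene of the zinc finger repressor Snail, had 0.328 and 0.712 FPKM in shCtl against 0.777 and 1.96 in shCbx6. Both knockdown values were above both controls, the nearer by a margin far smaller than the spread within either group. Snai1 was tested only because its shCbx6 mean reached 1 FPKM, so it passed the filter through the group in which it was higher. The log2 fold change was 0.60 (SE 0.313; limma, adjusted p = 0.539), and the ratio of means was 2.63. Without the second shCbx6 library the ratio was 1.49 and the gene no longer passed the filter. The values rest on an estimated 15.4 and 33.9 fragments in shCtl against 34.9 and 103.7 in shCbx6.

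Snai2 and Twist1 stayed under 1 FPKM in all libraries and were not tested. Snai2, the gene of the related repressor Slug, had 0.752 and 0.363 FPKM in shCtl against 0.280 and 0.163 in shCbx6, from an estimated 45.5 and 22.3 against 16.2 and 11.1 fragments. Twist1, the gene of a basic helix-loop-helix factor of the early mesoderm, had 0.381 and 0.627 FPKM in shCtl against 0.798 and 0.808 in shCbx6, from 17.8 and 29.7 against 35.7 and 42.6 fragments. Both knockdown values lay below both controls for Snai2 and above them for Twist1. The summed level of the 5 transcription factor genes was 4.52 and 3.82 FPKM in shCtl against 3.42 and 3.78 in shCbx6. Snai1 over Snai2 was 0.436 and 1.96 in shCtl against 2.78 and 12.0 in shCbx6, and Zeb1 over Zeb2 was 18.6 and 19.4 in shCtl against 6.72 and 5.39 in shCbx6, again as ratios chosen after seeing the values.

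**Figure D2:**
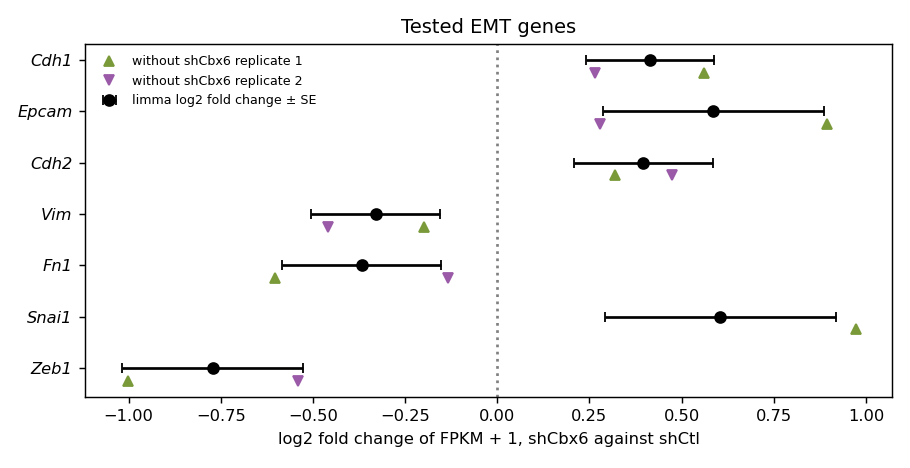
limma log2 fold change of FPKM + 1, shCbx6 against shCtl, of the 7 tested members (black points, bars ± SE), with the value without the first (green) or second (purple) shCbx6 library. Zeb1 lies furthest from 0 at −0.77, and leaving out either library changes no sign; Snai1 is not tested without the second.

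Genes around the members in the same programme were taken from 6 lists of textbook EMT genes. limma called 0 genes of any of these lists, in either direction, at an adjusted p under 0.05. The counts that follow stand beside 7.63% of all tested genes 1.5-fold higher, 6.56% lower, 18.9% above both controls and 24.4% below. Of 27 epithelial junction and polarity genes, all of which were tested, 17 were 1.5-fold higher and 0 lower, with 18 above both controls, 1 below and a median log2 fold change of 0.61. At an unadjusted limma p under 0.05, 6 were higher and 0 lower, beside 5.12% and 6.55% of all tested genes. The same counts were 3 and 2 for epithelial regulators, 1 and 0 for cadherins and catenins, and 3 and 0 for mesenchymal genes. For other EMT transcription factors they were 3 and 1, and for the TGF-beta input 1 and 2. Tested genes above and below both controls numbered 4 and 2 of 9 epithelial regulators and 1 and 0 of 5 cadherins and catenins. They numbered 5 and 0 of 13 mesenchymal genes and 6 and 1 of 10 other EMT transcription factors. In the TGF-beta input they numbered 1 and 3 of 8. Of the 17, 4 had passed the filter on low values only through their shCbx6 mean, which had to be the higher one, and among the other 23 genes 13 were higher, with a median of 0.51. Without the second shCbx6 library, 9 of the 27 were higher and 0 lower. For this and the lists that follow, the filter was not applied again. The 9 include a gene that would fail the filter without that library.

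The keratin genes Krt8 and Krt18, whose proteins pair in simple epithelia and in trophectoderm, had the widest differences in that list. Krt18 had 3.66 and 6.91 FPKM in shCtl against 13.2 and 122.2 in shCbx6 (log2 fold change 2.78, SE 0.995; limma, adjusted p = 0.389). Krt8 had 4.81 and 7.25 FPKM in shCtl against 12.1 and 118.8 in shCbx6, so both keratins stood mainly in 1 library. Spint2, a gene of a membrane serine protease inhibitor and the most abundant of the list in shCtl, had a ratio of means of 1.08, and its groups overlapped.

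Among the 9 tested of 11 epithelial regulators, 5 were 1.5-fold higher and 1 lower (3 and 1 without the second shCbx6 library), with a median log2 fold change of 0.39. Esrp1, an epithelial splicing regulator gene, had 4.23 and 4.68 FPKM in shCtl against 17.7 and 26.3 in shCbx6. This was among the clearest separations in the lists, a log2 fold change of 2.05 (SE 0.212; limma, adjusted p = 0.0754), still outside the threshold. Klf4, a factor of naive pluripotency that also serves epithelial genes, had 91.1 and 96.7 FPKM in shCtl against 36.7 and 28.0 in shCbx6 (log2 fold change −1.52, SE 0.177; limma, adjusted p = 0.0842). Klf5, a related factor, had a ratio of means of 0.752. Of 10 further cadherin and catenin genes, 5 were tested and 1 was 1.5-fold higher, also without the second shCbx6 library. That was Cdh3, the P-cadherin gene, with 4.51 and 5.55 FPKM in shCtl against 9.33 and 11.5 in shCbx6 (log2 fold change 0.92, SE 0.173; limma, adjusted p = 0.17). The catenin genes that tie E-cadherin to actin were nearly level, with ratios of means of 1.05 for Ctnna1 and 0.985 for Ctnnb1.

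Of 30 mesenchymal matrix and cytoskeleton genes, 13 were tested. By the threshold, 6 were 1.5-fold higher and 0 lower, with a median log2 fold change of 0.25, and 3 higher and 1 lower without the second shCbx6 library. Of the 6, 3 had passed the filter only through their shCbx6 mean, Tagln among them, and the median without these was 0.02. Over all 30, tested or not, 13 had both shCbx6 values above both controls and 2 both below. Of all genes, tested or not, 16.5% lay above and 16.1% below. The widest tested differences were in smooth muscle contractile genes. Tagln had 0.874 and 0.475 FPKM in shCtl against 5.12 and 37.0 in shCbx6 (log2 fold change 3.20, SE 0.828; limma, adjusted p = 0.258), and Acta2 had 1.95 and 1.59 against 3.46 and 9.31. The integrin gene Itgb1 had a ratio of means of 1.20. Sparc, a matrix glycoprotein gene, had 20.7 and 26.8 FPKM in shCtl against 17.6 and 61.0 in shCbx6, which overlap.

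Of 16 other EMT transcription factors and their inhibitors, 10 were tested, with 5 past 1.5-fold higher and 1 lower (3 and 1 without the second shCbx6 library) and a median of 0.43. Of the 5, 1 had passed the filter only through its shCbx6 mean, and the median without it was 0.15. That gene is among the 3 counted without the second shCbx6 library, where it would fail the filter. Higher members of the list included the Id genes, whose proteins block helix-loop-helix factors. Id2 had 6.39 and 5.14 FPKM in shCtl against 15.4 and 25.8 in shCbx6 (log2 fold change 1.64, SE 0.264; limma, adjusted p = 0.125), and Id1 had 27.3 and 46.3 against 49.1 and 99.7. The ratio of means of Id1 was 2.02, and 1.335 without the second shCbx6 library. Tcf3, the gene of the E2A partner of TWIST1, was nearly level at a ratio of 1.11. Of 13 genes of the TGF-beta input, 8 were tested, with 1 past 1.5-fold higher, 2 lower (1 and 3 without the second shCbx6 library) and a median of −0.15. Skil, which encodes a SMAD corepressor, had 18.1 and 16.5 FPKM in shCtl against 27.0 and 33.7 in shCbx6 (limma, adjusted p = 0.199). The inhibitory SMAD gene Smad7 had 15.4 and 12.1 FPKM in shCtl against 10.7 and 6.63 in shCbx6 (limma, adjusted p = 0.425). The shared mediator gene Smad4 and the corepressor gene Ski had ratios of 0.948 and 1.06.

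**Figure D3:**
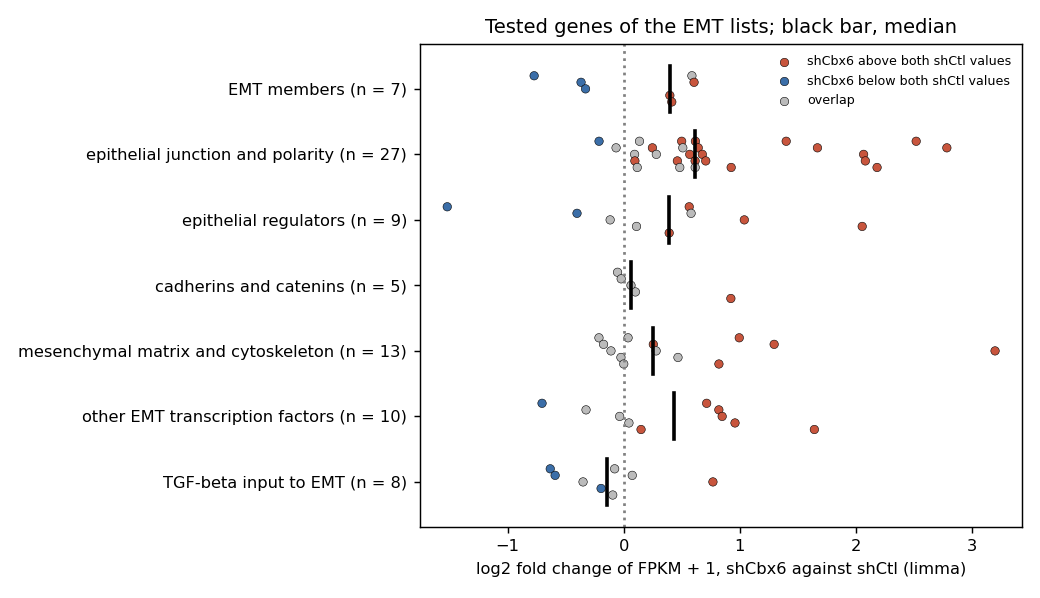
limma log2 fold change of FPKM + 1, shCbx6 against shCtl, of each tested gene in the members and the 6 surrounding lists, with a black bar at each median. Red points have both shCbx6 values above both controls, blue points both below, grey points overlap; medians run from −0.15 for the TGF-beta input to 0.61 for junction and polarity genes.

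Markers of other cell types differed in level between the same libraries, and their part in the differences above was not tested. Trophoblast markers, which share simple-epithelium keratins, summed to 5.498 and 4.54 FPKM over 8 genes in shCtl against 10.5 and 23.5 in shCbx6. Of 4 tested genes, 3 were 1.5-fold higher, also without the second shCbx6 library when the filter was not applied again. Of the 3, 2 had passed the filter only through their shCbx6 mean, Krt7 among them. Both would fail it without the second shCbx6 library, which leaves Tfap2c. Krt7 had 0.0219 and 0.151 FPKM in shCtl against 0.549 and 9.02 in shCbx6, and Tfap2c had 2.84 and 2.21 against 7.41 and 9.04. ESC markers lay below both controls in 6 of 8 genes, and 3 of the 8 were 1.5-fold lower (1 without the second shCbx6 library). Among them, Nanog had 320.7 and 358.7 FPKM in shCtl against 203.5 and 191.6 in shCbx6, and Esrrb 203.5 and 188.8 against 151.5 and 87.2. Pou5f1 had a ratio of means of 0.808 and Dppa5a of 0.816.

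Fibroblast markers summed to 2.33 and 2.35 FPKM over 10 genes in shCtl against 1.71 and 5.46 in shCbx6. Pdgfrb stayed at or below 0.725 FPKM. Over all 10, tested or not, 4 had both shCbx6 values above both controls, 1 had both below and 5 overlapped. The 4 stayed under 1 FPKM, and of all genes, tested or not, 16.5% lay above and 16.1% below. Primitive streak and mesoderm markers, the cells that undergo EMT at gastrulation, summed to 3.77 and 2.88 FPKM over 10 genes in shCtl against 3.74 and 5.43 in shCbx6. The 1 tested among them, Eomes, had a ratio of means of 1.00, and Mesp2 stayed below 1 FPKM. Over all 10, tested or not, 5 had both shCbx6 values above both controls, 2 had both below and 3 overlapped, beside 16.5% above and 16.1% below of all 23288 genes, tested or not. Among the 5 was T, the Brachyury gene, named after its values were seen, with 0.0984 and 0.0324 FPKM in shCtl against 0.446 and 0.771 in shCbx6. Primitive endoderm markers summed to 50.9 and 54.9 FPKM over 14 genes in shCtl against 39.9 and 99.8 in shCbx6. Of 6 tested, 3 were 1.5-fold higher, 1 of them having passed the filter only through its shCbx6 mean, and 1 was lower. These counts became 0 and 3 without the second shCbx6 library. Their laminin genes differed in opposite directions, with Lama1 at 9.95 and 9.29 FPKM in shCtl against 2.90 and 2.04 in shCbx6 and Lamb1 at 12.1 and 10.8 against 15.4 and 24.0.

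A peak was assigned to a gene where it overlapped, by at least 1 bp, the region from 2.5 kb before the outermost annotated start to the end of transcription. All 10 members had a peak in the first CBX6 list, beside 56.9% of 21921 genes with coordinates. The second CBX6 list had a peak at 7 of 10 (16.6% of all genes), CBX7 at 6 (17.9%) and RING1B at 5 (16.1%). Of the 6 members with a CBX7 peak, Snai1, Snai2 and Zeb1 had only peaks with a score under 100. Cdh2, Twist1, Zeb1 and Zeb2 had a peak in all 4 lists, as did 11.5% of all genes. Counted within 2.5 kb of the outermost start alone, the members with a peak again numbered 10, 7, 6 and 5, beside 51.6%, 14.5%, 15.8% and 14.4% of all genes. The lists held 21865, 5103, 5081 and 4180 peaks in the same order, called per sample, and the depth behind them is unknown. The kit used for the tagged protein differed from the protocol for the other antibodies, so scores are set side by side only within a list.

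The lists were read beside expression. Snai1, Snai2, Twist1 and Zeb2, the 4 with a mean shCtl level under 1 FPKM, all had a peak in both CBX6 lists and in the CBX7 list. Of all genes under 1 FPKM, 34.3% had a peak in the first CBX6 list, 21.2% in the second and 24.3% in the CBX7 list. RING1B peaks stood at 2 of the 4, Twist1 and Zeb2, where 22.6% of genes under 1 FPKM had one. Among the 6 members at 1 FPKM or more, Cdh2 and Zeb1 had all lists, Epcam had both CBX6 lists, Vim had the first CBX6 list and RING1B, and Cdh1 and Fn1 had the first CBX6 list alone. Of all genes at 1 FPKM or more, 79.5% had a peak in the first CBX6 list, 12% in the second, 11.5% in the CBX7 list and 9.54% in the RING1B list.

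**Figure D4:**
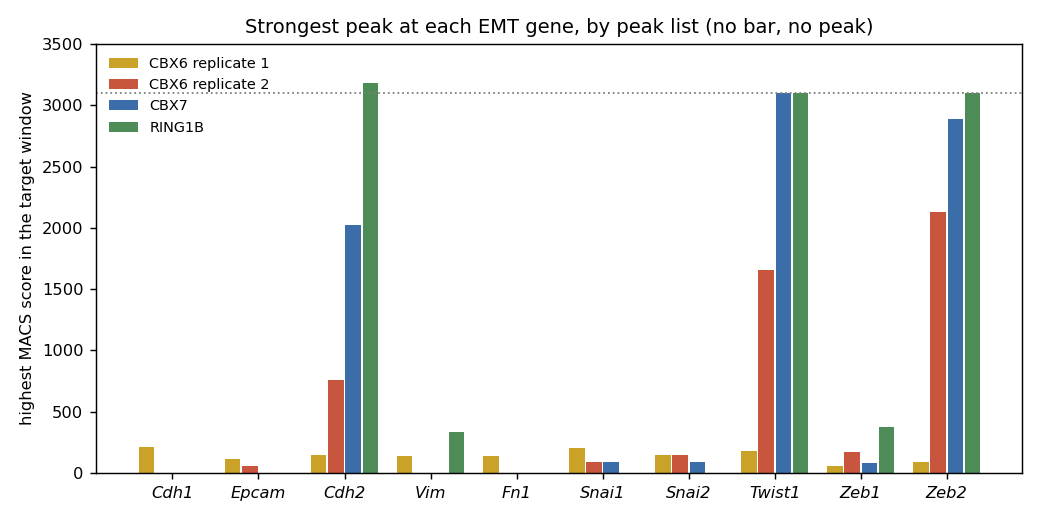
Highest MACS score among the peaks in the window of each member, by peak list (bars from 0; no bar, no peak), with a dotted line at 3100, a score that recurs in 3 of the lists. Cdh2, Twist1 and Zeb2 have the tall bars, from 758.2 to 3183 outside the first CBX6 list, and no other member has a bar above 373.5.

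Twist1 (chr12:34642536-34644682, plus strand) was the member most fully covered. In the second CBX6 list 1 peak, chr12:34639784-34644697 with a MACS score of 1657, ran from upstream of the start past the end of the gene. CBX7 (chr12:34639761-34644620) and RING1B (chr12:34639654-34644726) had matching peaks, both at a score of 3100. That score recurs in 134 peaks of the second CBX6 list, 403 of the CBX7 list and 507 of the RING1B list, so peaks at it cannot be ranked. The first CBX6 list had 2 smaller peaks there, the stronger, chr12:34642454-34644068, at a score of 177.9. Beyond the gene, a second domain centred about 10 kb past the start was in all 4 lists, with scores of 1260 in the second CBX6 list, 2204 for CBX7 and 2255 for RING1B.

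Zeb2 (chr2:44839154-44972915, minus strand) had its strongest peaks inside the gene. They were chr2:44962690-44967235 in the second CBX6 list (score 2133), chr2:44962703-44967201 for CBX7 (2889) and chr2:44963270-44967297 for RING1B (3100), and their nearer edges lay 5680, 5714 and 5618 bp from the outermost start. Each of the 3 covered 5 other annotated Zeb2 starts. At the outermost start the RING1B peak scored 170.9 and the first CBX6 list had a peak of 51.2. Cdh2 (chr18:16747386-16967755, minus strand) had 1 RING1B peak over its start, chr18:16965070-16969095, with a score of 3183. Peaks at the recurring score of 3100 cannot be ranked, so its place in the RING1B list is not given. The CBX7 peak at Cdh2 scored 2027, and the second CBX6 list had 2 peaks, 1 over the start (447.4) and 1 inside the gene (758.2).

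Zeb1 (chr18:5591858-5775465, plus strand) had weaker peaks in all 4 lists. The RING1B peak, chr18:5591835-5594362, scored 373.5, close to the median of 402.3 in its list. The CBX6 peaks of the 2 replicates did not meet: replicate 1 had chr18:5591088-5592104 over the outermost start (60.2) and replicate 2 chr18:5592882-5594268 beginning 1024 bp inside (174), each overlapping the RING1B peak. The CBX7 peak at Zeb1 scored 84.0 and overlapped only the second CBX6 list and RING1B.

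Snai1 (chr2:167363695-167368314, plus strand) and Snai2 (chr16:14705945-14709488, plus strand) had CBX6 and CBX7 peaks and no RING1B peak. At Snai1 the CBX7 peak (chr2:167362665-167364066, score 87.9) covered the start with a peak of the first CBX6 list (93.6). The second CBX6 list had its peak inside the gene (chr2:167364635-167366111, score 86.7), overlapping another of the first list (206.5) and not that of CBX7. At Snai2 the peaks of the 3 lists overlapped each other at the start, with scores of 147, 149.9 and 91.4 for CBX6 replicates 1 and 2 and CBX7. At both genes the peaks of the second CBX6 list and of CBX7 lay below the median scores of those lists, 155.6 and 300.4.

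The 4 abundant members had little outside the first CBX6 list. Cdh1 (chr8:109127251-109194146, plus strand) had 4 peaks in that list, 1 over its start (score 152), the strongest in the gene at chr8:109138492-109144379 (208.8), and none in the other 3 lists. Epcam (chr17:88035319-88050446, plus strand) had a peak over its start in the first list (110.3), and a small one, chr17:88036083-88036753, in the second (54.1, above 6.82% of that list). Fn1 (chr1:71632094-71699774, minus strand) had 2 peaks of the first list at its start, the stronger at 139.9. Vim (chr2:13495554-13504453, plus strand) had a first-list peak over its start (139.3) and a RING1B peak (chr2:13495580-13497027, score 335.4) beginning just inside the gene, with no CBX7 peak and none in the second CBX6 list.

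**Figure D5:**
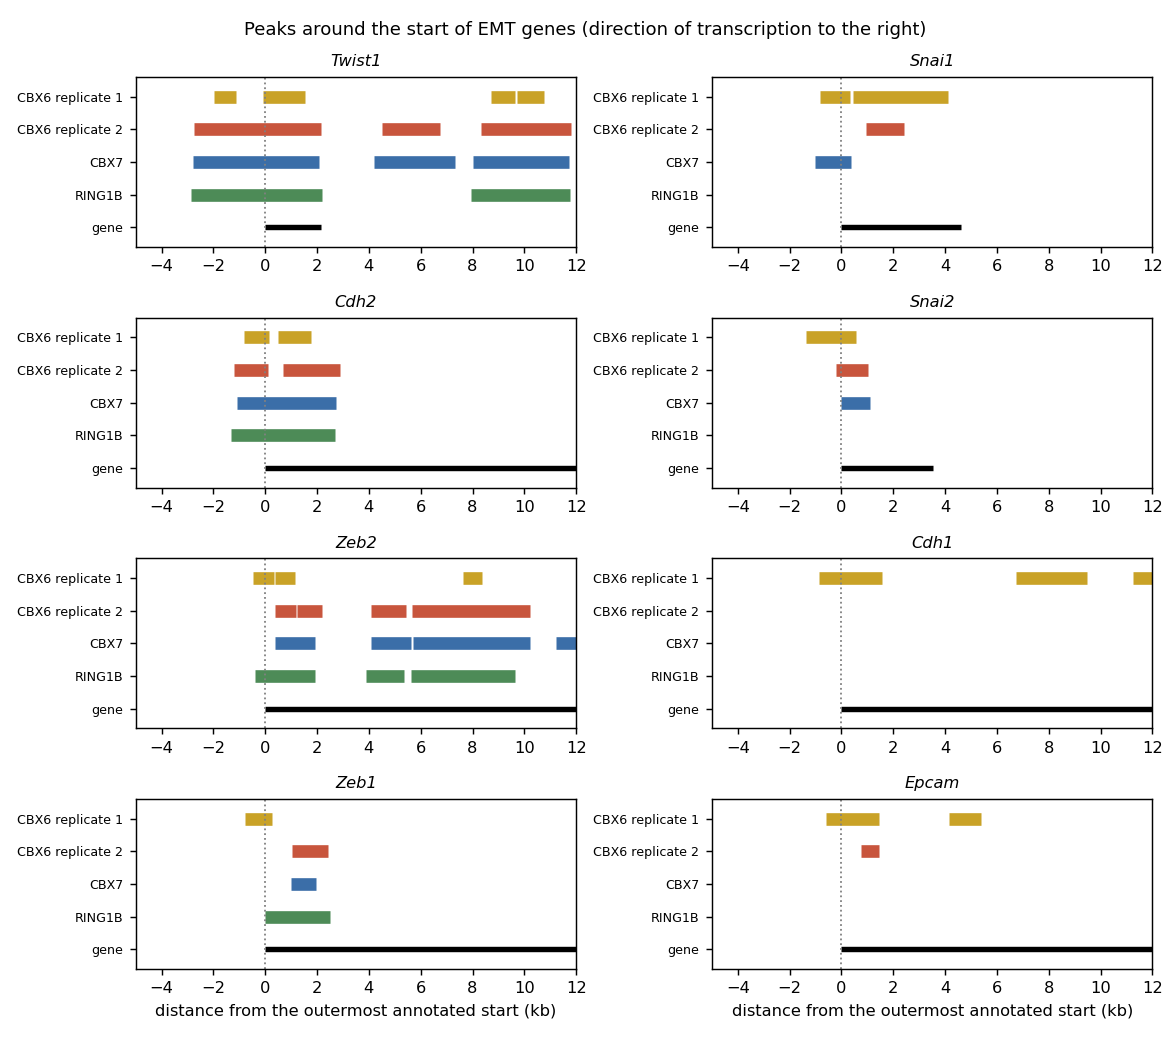
Peaks of the 4 lists (coloured bars) and the gene (black) around 8 members, in kb from the outermost annotated start, with transcription to the right. Peaks of several lists lie over the starts of Twist1 and Cdh2 and inside Zeb2, while Cdh1 shows only peaks of the first CBX6 list.

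Members with the same lists differed in where their knockdown values lay. Of the 4 with all lists, Cdh2 and Twist1 had both shCbx6 values above both controls, Zeb1 had both below, and Zeb2 overlapped. The members with peaks in the first CBX6 list alone, Cdh1 and Fn1, lay on opposite sides of the controls. In the surrounding lists, CBX7 peaks were at 12 of 27 junction and polarity genes (44.4%), 10 of 16 other EMT transcription factors (62.5%) and 8 of 30 mesenchymal genes (26.7%). RING1B peaks were at 6 (22.2%), 11 (68.8%) and 8 (26.7%) of them. Of all genes, 17.9% had a CBX7 and 16.1% a RING1B peak. Both CBX7 and RING1B had peaks at 5 of 11 epithelial regulators and 5 of 10 cadherins and catenins. In the TGF-beta input they had 8 and 7 of 13. The first CBX6 list, with a peak at 56.9% of all genes, had one at 25 of the 27, 16 of the 16 and 9 of the 30. All 4 lists had a peak at Esrp1, Cdh3 and Krt18, and none had one at Tagln, Acta2 or Sparc. Over the whole gene lists, peaks of all 4 stood at 6 of 27 junction and polarity genes and 5 of 30 mesenchymal genes. Of all genes, 11.5% had them. Klf4, Smad7 and Skil had a peak only in the first CBX6 list.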

How the data were processed

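RNA-seq of 4 libraries and ChIP-seq peak lists of 4 samples, of 11 samples in the series, were analysed. The authors mapped uniquely aligning reads to mm9 with TopHat (RNA) or Bowtie (ChIP), and versions are not given in the sources used here. The deposited FPKM values came from the authors' Cufflinks run on RefSeq transcripts, and FPKM hide differences in total RNA. The peak score is the one the authors' MACS run gave each peak, called per sample. Samples were grouped by their labels.

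Of 23290 entries, 23288 symbols were kept, with the higher mean used for a repeated symbol. Genes reaching a mean of 1 FPKM in shCtl or shCbx6 were tested with limma 3.58.1 (R 4.3.3; lmFit, eBayes with trend) on log2(FPKM + 1), with Benjamini-Hochberg adjustment over all of them. This test was first run on simulated data with known changes. The 1.5-fold threshold and the peak window follow the study, and taking the ratio of group means was a choice made here. Windows used GENCODE annotation of mm9 in place of RefSeq, where 94.1% of symbols had coordinates. Promoter sequences were read from mm9 with Python 3.11.15. Estimated fragments assume a fixed length offset, and 80% to 83.3% of low values lay within 0.1 of a whole fragment, so no count test was run.

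Members and lists were chosen with earlier results of these data known. Named are Cbx6, the 10 members and, from each other list, any gene limma called, the 2 most abundant in shCtl, and the 2 with the largest log2 fold change among those whose groups do not overlap. Some genes stand on several lists, and 1 gene that this rule names is not reported here. Alternatives covered the filter, pseudocount, scaling, replicate block, eBayes trend, fold threshold, each library left out, and the peak window, score and overlap.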

Additional observations from a re-analysis of the deposited data

How the results depend on the processing

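Every tested member kept the sign of its log2 fold change under all alternatives that could be run for it, and scaling moved the median of all genes by under 0.1. Leaving out each library in turn gave log2 fold changes of 0.27 to 0.56 for Cdh1, 0.28 to 0.90 for Epcam, 0.29 to 0.51 for Cdh2, −0.47 to −0.19 for Vim, −0.60 to −0.13 for Fn1, 0.42 to 0.97 for Snai1 and −1.0 to −0.54 for Zeb1. In these fits 1 group holds a single library, which is assumed to vary like the pair in the other group. limma called no member in them, while its calls over all genes came to 267 higher and 131 lower without the first shCbx6 library, 27 and 8 without the second, 10 and 12 without the first shCtl library and 5 and 14 without the second. Adjusted p for Zeb1 ran from 0.0725 to 0.916 over the alternatives.

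With the replicate number as a replicate block, limma called 1 member higher, Epcam (adjusted p = 0.0465, log2 fold change 0.59), where the fit without it called 0, and Cbx6 passed too (adjusted p = 0.0425). Calls over all genes went from 5 higher and 6 lower to 183 (1.58%) and 205 (1.77%). In the surrounding lists, where the fit without the block called 0, it called 6 junction and polarity genes higher, 2 epithelial regulators higher (Esrp1, adjusted p = 0.0142) and 1 lower (Klf4, 0.0216), 1 cadherin (Cdh3, 0.0326) and 3 other transcription factors (Id1 and Id2 among them) higher, and 0 mesenchymal or TGF-beta genes. It also called Nanog and Lama1 lower and Tfap2c higher. The numbers are shared by name only, and deviations of same-numbered libraries correlated at 0.266 over genes. Without the first shCbx6 library, which leaves 1 library in that group, the log2 fold change of Cbx6 was −1.42.

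By the fold threshold, 3 members were higher and 1 lower. At 2-fold 1 was higher, Snai1, beside 3.79% of all tested genes, and 1 lower, Zeb1, beside 2.31%. Snai1 had passed the filter only through its shCbx6 mean. With no filter or with a minimum mean of 0.5 FPKM, members lower came to 2, with Snai2 added, and members higher to 4, with Twist1 added, while the shares of all genes were 16.1% higher and 10.1% lower with no filter and 9.21% and 7.31% at 0.5 FPKM. Leaving out each library in turn gave 1 to 2 members higher and 1 to 2 lower, with 5.52% to 12.1% of all genes higher and 7.34% to 10.1% lower. Epcam dropped out without the first shCtl library, Cdh2 without the second shCtl or the first shCbx6 library, and Epcam and Snai1 without the second shCbx6 library. Fn1 was past 1.5-fold lower only without the first shCbx6 library. With peaks of a score of at least 100, members with a CBX7 peak came to 3 in place of 6, beside 14.9% of all genes in place of 17.9%. Counts for the other peak lists, windows and overlaps stayed within 1.5 times. Snai1, Snai2 and Twist1 rest on few fragments, and with 2 libraries per group changes of the size seen here may go uncalled.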
